A study of Mus musculus with 4 samples.

Results

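Collagens of types other than IV, XV and XVIII form the fibrils, filaments and networks of connective tissue, and their transcripts were followed here in sorted lymphatic endothelial cells (LECs). The members were the 36 *Col* genes of mouse outside those 3 types, matched by Ensembl gene ID to symbols of GENCODE, among the 55385 gene IDs of the deposited table. The study asked how loss of *Osr1*, a transcription factor of embryonic mesenchyme, affects the LECs that grow through that mesenchyme. CD45− PDPN+ CD31+ cells were sorted from digested trunk tissue of E13.5 embryos, from which the limbs, the tail, the organs and the cranial tissue over the tongue had been taken away, and each library pooled 8 to 10 embryos. The 4 libraries fall into 2 *Osr1controls* libraries, wild type by the deposited labels and *Osr1+/+* or *Osr1GCE/+* by the study's text, and 2 libraries labelled *Osr1GCE/GCE*, which the labels also call *Osr1*-KO. The GCE allele places an eGFP-marked, Cre-encoding cassette in *Osr1* in every cell of the embryo, so both the LECs and the mesenchyme around them carry it. No treatment of either group is named.

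Collagen chains fold into triple helices of 3 chains, either identical or of different genes, and the type of the trimer decides what it builds. Fibroblasts, chondrocytes, tendon cells and osteoblasts are the main producers of the fibrillar types, whereas endothelial cells are known for the basement membrane types IV, XV and XVIII that are left out here. Lymphatic capillaries lie in an interstitial matrix of types I, III, V and VI, to which anchoring filaments tie them.

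The libraries held 31586765 to 53438492 reads in genes, *Osr1controls* replicate 1 being the deepest. *Osr1* itself (chr12:9570116-9581500, mm10), the targeted gene, had 32.8 and 30.4 normalized counts in *Osr1controls* replicates 1 and 2 and 168 and 303 in replicates 1 and 2 labelled *Osr1GCE/GCE*, which was a rise by 2.80 (log2, standard error 0.31, adjusted p = 0.0262 in limma). This direction is not one of lost *Osr1* RNA. Counts over the whole gene do not separate the GCE allele from an intact one, so they could not check the label. Every direction below is therefore one between labelled groups. *Prox1*, the transcription factor of lymphatic identity, averaged 312 TPM and *Pecam1*, which encodes the CD31 of the sort, 387 TPM, so the defining transcripts of the labelled cell type were present. The level of *Prox1* was not even, at 174 and 310 TPM in *Osr1controls* replicates 1 and 2 and 414 and 352 TPM in replicates 1 and 2 labelled *Osr1GCE/GCE*. *Ccl21a*, another LEC marker, had only 1 or 2 reads per library. The study measured *Ccl21* by RT-qPCR and found it enriched in E13.5 LECs sorted in this way, so the few reads do not show that the marker was absent. Whether reads of this gene were lost in mapping or counting was not tested. *Pdpn*, the other sorting marker, rose in the libraries labelled *Osr1GCE/GCE* (0.61, adjusted p = 0.0329, but 0.0849 and 0.0732 without replicate 1 or 2 of that group).

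Of the 36 collagens, 35 passed the filter of a mean of at least 10 normalized counts (reads divided by DESeq2's size factors) and were tested. In the libraries labelled *Osr1GCE/GCE*, the group with more *Osr1* counts, 8 of them fell, none rose and 27 did not pass the test, which asked of a gene that its log2 fold change reach 0.3 in size, that its adjusted p from limma over 19479 genes lie under 0.05, and that it average over 1 TPM. The 8 were *Col1a1*, *Col5a1*, *Col24a1*, *Col6a2*, *Col6a3*, *Col12a1*, *Col8a1* and *Col25a1*. Over all genes tested, 1.75% were called lower and 1.13% higher, 2.89% in all. At an unadjusted p under 0.05, 22 collagens were lower and 0 higher, and neither edgeR nor DESeq2 called any collagen higher. In either direction, 4169 of all 19479 genes had an unadjusted p under 0.05, which is also the background of such counts below. Of all called genes 60.7% were lower, against 49.5% with TMM factors, 48.5% by edgeR and 70.9% with library totals.

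Both libraries labelled *Osr1GCE/GCE* lay below both *Osr1controls* libraries for 28 of the 35 tested collagens, and above both for *Col23a1* alone, with overlap for the other 6. The same lack of overlap was seen downward for 28.9% and upward for 24.7% of all genes tested. The estimate was below 0 for 32 collagens (52.8% of all genes), and the median log2 fold change of the 35 was -0.58, against -0.02 over all genes. In bulk RNA, fewer collagen-producing cells and less collagen RNA per cell cannot be told apart.

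**Figure D1:**
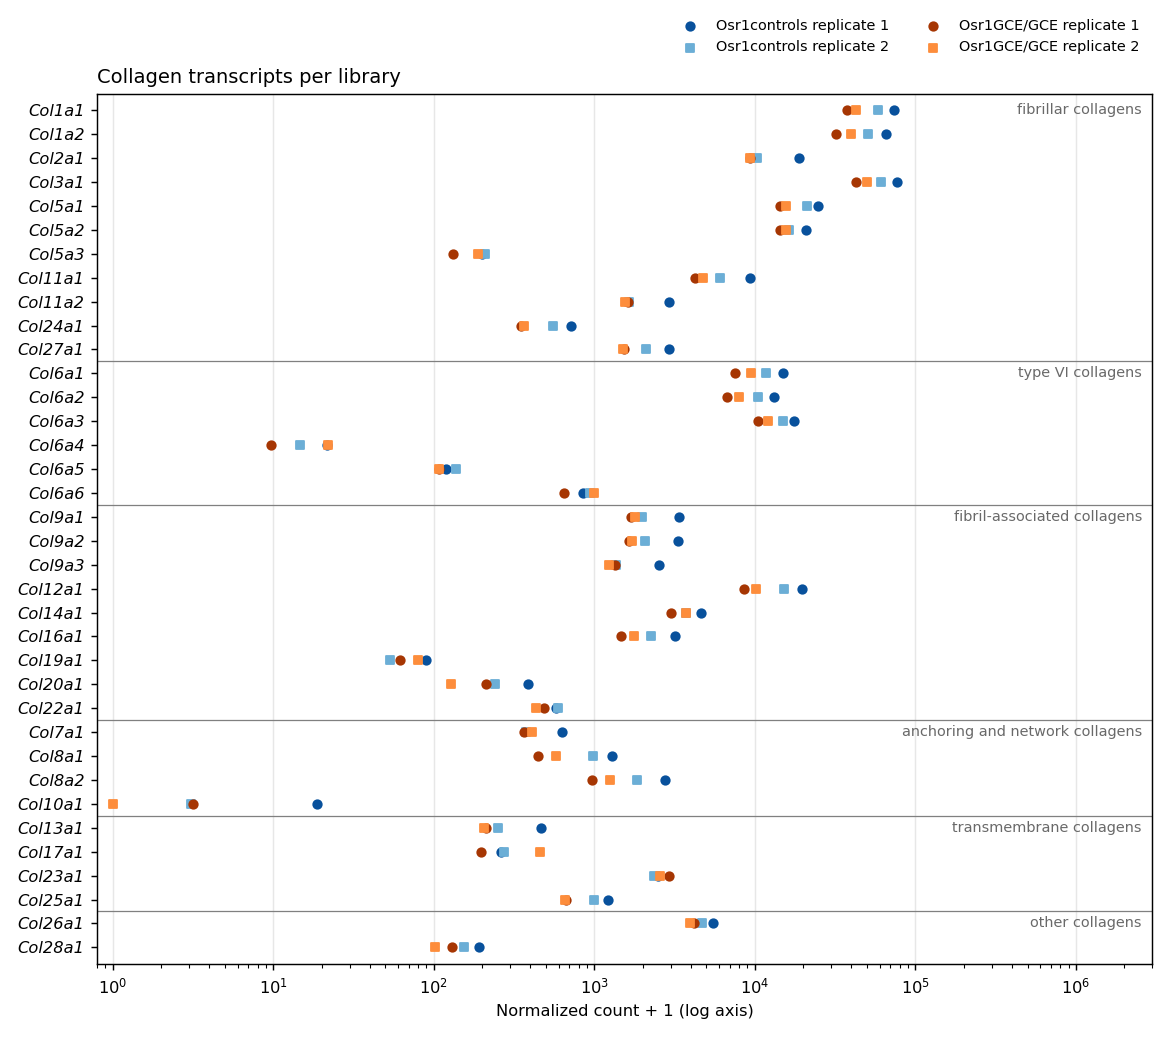
Normalized count + 1 of each of the 36 collagens (log axis) in each of the 4 libraries, 1 point per library, grouped by collagen class. For 28 of the 35 tested genes both orange points (libraries labelled Osr1GCE/GCE) lie left of both blue points (Osr1controls), and Col23a1 is the one gene in which they lie to the right.

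The number of calls depended on single libraries and on the test. It was 6 without *Osr1controls* replicate 1, 24 without *Osr1controls* replicate 2, 0 without replicate 1 labelled *Osr1GCE/GCE* and 3 without replicate 2 of that group, while the median stayed between -0.84 and -0.40. In such fits the library left alone in its group is assumed to vary like the pair of the other. DESeq2 on the recovered reads called 16 collagens lower, edgeR 6, limma with TMM factors 5 (not *Col6a2*, *Col6a3* and *Col12a1*), and limma without its trend and robust options 0 collagens and 0 genes overall. Of all genes tested, DESeq2 called 4.32% lower, edgeR 1.1% and limma with TMM factors 1.19%. With all 4 libraries kept, the adjusted p of the 8 called genes lay between 4e-06 (*Col12a1*, DESeq2) and 0.246 (*Col6a3*, limma without those options).

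The summed level of the 36 collagens was 4577 and 3621 TPM in *Osr1controls* replicates 1 and 2 and 2362 and 2701 TPM in replicates 1 and 2 labelled *Osr1GCE/GCE*. Collagen transcripts thus took 1.04% and 0.801% of the reads in genes in the first group and 0.517% and 0.621% in the second. The groups did not overlap, with a sum 38.0% lower in the second (log2 difference -0.69), but the exact two-sided permutation p of 0.333 is the smallest that 2 libraries against 2 can give. *Col1a1*, *Col3a1* and *Col1a2* made up 50.4% to 53.5% of the sum in each library. Without these most abundant chains the log2 difference of the sum was -0.64.

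Type I collagen, the trimer of *Col1a1* and *Col1a2* that makes up most of the fibrils of skin, tendon and bone, was the most abundant. *Col1a1* (chr11:94936224-94953042) had 73372 and 58643 normalized counts in the *Osr1controls* libraries and 37678 and 42569 in the libraries labelled *Osr1GCE/GCE*. It fell by 0.71 on the log2 scale (standard error 0.12, limma adjusted p = 0.0343), that is by 38.9%, from a mean of 998 to 576 TPM. *Col1a2* (chr6:4504814-4541544), its partner chain, had 65474 and 50564 against 32104 and 39646 normalized counts and an estimate of nearly the same size (log2 fold change -0.69, standard error 0.15) that did not pass the test (adjusted p = 0.0642). In both genes *Osr1controls* replicate 1 was the highest and replicate 1 labelled *Osr1GCE/GCE* the lowest library. *Col3a1*, the single chain of type III collagen in extensible tissues, likewise had 76357 and 61271 against 42648 and 49765 normalized counts (-0.57, adjusted p = 0.0555). All 3 chains showed the groups apart, although 1 of them passed.

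The promoter sequences of 3 members are shown to set a chain of the most abundant collagen beside the member with the lowest estimate and the member that was higher in both libraries labelled *Osr1GCE/GCE*. Each run is the 250 bases before the RefSeq start of the gene, 5′ to 3′ on the strand of the gene, on GRCm38.p6. The *Col1a2* window is chr6:4505368-4505617 (plus strand), inside the longer GENCODE gene, the *Col8a1* window chr16:57754738-57754987 (minus strand) and the *Col23a1* window chr11:51289670-51289919 (plus strand). Capitals mark CCAAT (the box bound by NF-Y), GGGCGG (the GC box bound by SP1) and the letters of either motif when it lies on the opposite strand, and no marked motif overlaps another.
Col1a2: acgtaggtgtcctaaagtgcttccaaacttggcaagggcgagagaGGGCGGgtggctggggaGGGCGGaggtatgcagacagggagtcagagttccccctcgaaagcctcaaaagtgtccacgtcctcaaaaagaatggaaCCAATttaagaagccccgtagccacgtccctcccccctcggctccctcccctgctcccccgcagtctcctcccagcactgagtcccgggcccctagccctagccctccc
Col8a1: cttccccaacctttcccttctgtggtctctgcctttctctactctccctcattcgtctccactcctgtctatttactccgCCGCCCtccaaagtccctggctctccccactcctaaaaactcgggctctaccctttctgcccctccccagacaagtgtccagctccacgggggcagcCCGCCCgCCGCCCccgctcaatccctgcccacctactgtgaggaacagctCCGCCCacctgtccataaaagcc
Col23a1: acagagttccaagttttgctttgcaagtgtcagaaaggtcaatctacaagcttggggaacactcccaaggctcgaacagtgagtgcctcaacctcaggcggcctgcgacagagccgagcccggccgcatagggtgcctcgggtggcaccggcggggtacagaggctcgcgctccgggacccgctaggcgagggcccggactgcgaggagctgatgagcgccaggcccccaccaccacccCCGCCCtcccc
The *Col1a2* window holds 1 CCAAT box, 109 bases before the start, and GC boxes 205 and 188 bases before it. *Col8a1* has no CCAAT box in its window but 4 GC boxes on the opposite strand, and *Col23a1* has a single GC box, 11 bases before the start. RefSeq windows were found for 28 of the 36 members, 30 windows in all, and *Col1a1* and *Col12a1* were among the 8 with no entry in the table. Searched on both strands, GGGCGG stood in 60.0% of the members' windows against 32.7% of all 32851 windows, CCAAT in 30.0% against 33.8%, and TATAAA in 16.7% against 12.4%. The 17 members with a GC box include *Col8a1* and *Col25a1*, which fell, and *Col23a1*, which did not, and no test was made of these shares.

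The other fibrillar collagens were lower to differing degrees. Type V collagen sets the diameter of type I fibrils, and its *Col5a1* chain (chr2:27886425-28039514) had 24812 and 21009 normalized counts in the *Osr1controls* libraries against 14454 and 15545 in the libraries labelled *Osr1GCE/GCE*, a fall by 0.61 (log2, standard error 0.10, adjusted p = 0.0333). *Col5a2*, which joins it in the trimer, had 20779 and 16255 against 14361 and 15660 normalized counts, and its second libraries differed little (-0.29, standard error 0.12, adjusted p = 0.223). *Col5a3*, a rarer chain of the same type at a mean of 2.59 TPM, had an estimate of -0.37 (adjusted p = 0.382). *Col5a1* shares 99 exon bases with the noncoding gene *2810430I11Rik*, which averaged 18.5 normalized counts, and reads there cannot be assigned to a strand.

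*Col24a1* (chr3:145292472-145552011), a fibrillar collagen known from developing bone and present at only 6.33 TPM, fell most among the fibrillar chains that passed. Its normalized counts were 718 and 554 in the *Osr1controls* libraries against 346 and 362 in the libraries labelled *Osr1GCE/GCE* (log2 difference -0.83, standard error 0.16, adjusted p = 0.0427). The latter pair lay close together, and the groups were well apart. *Col27a1*, a fibrillar collagen of cartilage and other tissues, had 2916 and 2098 against 1531 and 1501 normalized counts, and its estimate of -0.71 missed the threshold (adjusted p = 0.0544). In all, 3 of the 11 fibrillar genes fell (edgeR 3, DESeq2 7), all 11 had separate groups, and their median was -0.61.

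Without replicate 1 labelled *Osr1GCE/GCE*, the estimates of *Col1a1*, *Col5a1* and *Col24a1* were -0.62, -0.55 and -0.80. Each of the fibrillar calls was lost without that library. Without it the adjusted p was 0.190 for *Col1a1*, 0.150 for *Col5a1* and 0.201 for *Col24a1*. *Col1a1* also missed the threshold without *Osr1controls* replicate 1 (0.0567) or replicate 2 labelled *Osr1GCE/GCE* (0.0540), *Col5a1* without the former (0.0605) and *Col24a1* without the latter (0.0899).

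The chains of cartilage collagens, *Col2a1*, *Col11a1*, *Col11a2* and the 3 *Col9* genes, had another pattern over libraries. *Col2a1*, the single chain of type II collagen and the main fibril of cartilage, had 18863 normalized counts in *Osr1controls* replicate 1, but 10325 in *Osr1controls* replicate 2 and 9366 and 9325 in the libraries labelled *Osr1GCE/GCE*. One library thus stood apart, and the other 3 lay close together (log2 fold change -0.58, standard error 0.33, adjusted p = 0.420). *Col11a2*, a chain of the type XI collagen in the core of cartilage fibrils, had 2917, 1634, 1625 and 1563 normalized counts in the same order, with the same single high library (-0.45, adjusted p = 0.462). *Col11a1*, which is also made outside cartilage, had 9314 and 6082 against 4267 and 4765 normalized counts (-0.74, adjusted p = 0.135), so its second *Osr1controls* library lay above the other group.

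Type IX collagen decorates the surface of type II fibrils. *Col9a1* had 3391 and 1972 against 1686 and 1795 normalized counts (log2 fold change -0.57, adjusted p = 0.321). The *Col9a2* chain had 3338 and 2056 against 1643 and 1726 (-0.64, adjusted p = 0.211). *Col9a3* had 2545 and 1368 against 1341 and 1239 (-0.53, adjusted p = 0.444). It shares 234 of its 3853 exon bases with *Tcfl5*, and reads in that part are uncertain. In each of the 3 genes *Osr1controls* replicate 1 was far above the rest. *Col10a1*, the collagen of hypertrophic cartilage, had 25, 2, 2 and 0 reads in the 4 libraries and was not tested, and it overlaps *Nt5dc1*.

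None of the 6 tested cartilage chains passed the test in limma (2 at an unadjusted p under 0.05, 0 by edgeR, 2 by DESeq2), although their median of -0.57 was close to that of the other 29 members, -0.59. Without *Osr1controls* replicate 1 the cartilage median was -0.16 and that of the others -0.42. Without *Osr1controls* replicate 2 the values were -0.98 and -0.73, and *Col2a1* then had an adjusted p of 0.00107 in place of 0.568 without replicate 1. Chondrocyte markers other than collagens shared the single high library but not the order of the other 3, with a summed level of 196 and 120 TPM in the *Osr1controls* libraries and 120 and 132 TPM in the libraries labelled *Osr1GCE/GCE*, 0 of 10 called in either direction (1 lower at an unadjusted p under 0.05, 0 by edgeR, 1 lower by DESeq2) and no marker without reads. Their part in the result was not tested.

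Type VI collagen forms beaded microfilaments around cells from an α1, an α2 and a further chain. Its 3 abundant chains had differences of like size, and 2 of them fell. *Col6a2* (chr10:76595762-76623630) had 13127 and 10442 normalized counts in the *Osr1controls* libraries against 6684 and 7994 in the libraries labelled *Osr1GCE/GCE* (log2 difference -0.68, standard error 0.13, adjusted p = 0.0450). *Col6a3* (chr1:90765923-90843971), that further chain in most tissues, had 17432 and 15060 against 10433 and 12163 (-0.52, standard error 0.11, adjusted p = 0.0473). The α1 chain *Col6a1*, 85161 bases from *Col6a2* on chromosome 10, had 14919 and 11783 against 7571 and 9510 (-0.64, standard error 0.15, adjusted p = 0.0683) and did not pass. In these 3 genes the order of the libraries was the same, with replicate 1 labelled *Osr1GCE/GCE* the lowest. The alternatives to *Col6a3* were rare and had estimates nearer to 0, all without a call: *Col6a6*, at 9.09 TPM, had 850 and 940 against 645 and 1001 normalized counts (-0.15), *Col6a5* 118 and 136 against 108 and 107 (-0.24), and *Col6a4* 20.7 and 13.6 against 8.69 and 21.1 (-0.28). *Col6a2* and *Col6a3* lost their calls by edgeR (adjusted p = 0.0583 for each), without replicate 1 labelled *Osr1GCE/GCE* (0.218 and 0.203) and without *Osr1controls* replicate 1 (0.0572 and 0.111), and *Col6a2* also without replicate 2 labelled *Osr1GCE/GCE* (0.0502).

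Among the collagens that bind to the surface of fibrils, *Col12a1* (chr9:79598991-79718831) was the one that fell. This long chain sits on type I fibrils in tendon, fascia and dermis, and it had 19668 and 15103 normalized counts in the *Osr1controls* libraries against 8516 and 10225 in the libraries labelled *Osr1GCE/GCE*, a fall by 0.89 (log2, standard error 0.15, adjusted p = 0.0371) or 45.9%. *Col14a1*, its close relative on type I fibrils, had 4625 and 3701 against 2984 and 3714 normalized counts, so that its groups overlapped (-0.31, adjusted p = 0.259). *Col16a1*, a minor component of several fibrils and microfilaments, had 3162 and 2263 against 1469 and 1768 and an estimate of -0.73 that did not pass (adjusted p = 0.0746). *Col12a1* kept its call without either *Osr1controls* library and by edgeR, and lost it with TMM factors or library totals and without replicate 1 or 2 labelled *Osr1GCE/GCE* (adjusted p = 0.193 and 0.0527).

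The remaining surface collagens were low. *Col22a1*, known from junctions of muscle and tendon, had 579 and 589 against 484 and 431 normalized counts (-0.35, adjusted p = 0.181), and its replicates lay close together. *Col20a1* had 386 and 240 against 209 and 126 normalized counts (-0.90, standard error 0.31, adjusted p = 0.162), a difference with a wide error, and it shares 79 exon bases with *BX649560.1*, which itself averaged 301. *Col19a1*, at 0.988 TPM, had 89.0 and 52.3 against 60.8 and 79.3 normalized counts, with overlapping groups and an estimate of 0.024. It is 9205 bases from *Col9a1* on the opposite strand of chromosome 1, where *Col9a1* had -0.57. Of the 9 genes of this class 1 fell, and their median was -0.57.

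Type VIII collagen builds hexagonal networks under endothelium and in vessel walls, and its 2 chains had the lowest estimates of all 35 collagens. *Col8a1* (chr16:57624258-57754737) had 1296 and 982 normalized counts in the *Osr1controls* libraries against 445 and 580 in the libraries labelled *Osr1GCE/GCE*. It fell by 1.15 (log2, standard error 0.18, adjusted p = 0.0329), or by 54.9%, from a mean of 14.4 to 6.17 TPM. *Col8a2* (chr4:126286793-126314330) had 2743 and 1837 against 972 and 1247 normalized counts (-1.03, standard error 0.22) and did not pass (adjusted p = 0.0776). The highest library labelled *Osr1GCE/GCE* was far below the lowest *Osr1controls* library in both genes. *Col8a1* kept its call with each library left out in turn except replicate 1 labelled *Osr1GCE/GCE* (adjusted p = 0.150). *Col7a1*, the chain of the anchoring fibrils of skin, had 626 and 373 against 363 and 409 normalized counts, with 1 high *Osr1controls* library and overlapping groups (-0.33, adjusted p = 0.488).

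The estimates of the 4 transmembrane collagens did not share a sign, though those above 0 did not pass the test. *Col25a1* (chr3:130131501-130599877), which motor axons need for innervating muscle in the mouse, fell from 1216 and 995 normalized counts in the *Osr1controls* libraries to 668 and 655 in the libraries labelled *Osr1GCE/GCE* (log2 difference -0.73, standard error 0.13, adjusted p = 0.0360). The libraries of the second group lay close together, and the groups were apart. The 11 skeletal muscle markers had summed levels of 264 and 285 TPM in the first group and 134 and 143 TPM in the second, and their part in this difference was not tested. *Col25a1* lost the call without replicate 1 or 2 labelled *Osr1GCE/GCE* (adjusted p = 0.180 and 0.0909). *Col13a1*, found at cell-matrix contacts and neuromuscular junctions, had 464 and 251 against 212 and 204 (-0.71, adjusted p = 0.204), where *Osr1controls* replicate 1 stood apart again.

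*Col23a1* (chr11:51289920-51583918) was the most abundant of the class, at 43.5 TPM, and ran against the rest. It had 2508 and 2369 normalized counts in the *Osr1controls* libraries against 2908 and 2548 in the libraries labelled *Osr1GCE/GCE*, where both libraries were higher by a small margin (0.16, standard error 0.10, adjusted p = 0.413). *Col17a1*, the hemidesmosome collagen of basal keratinocytes, had 261 and 274 against 197 and 457, so that its positive estimate (0.16, standard error 0.40) came from 1 library and was -0.44 without it. Epithelial markers also differed between the libraries of that group, with a summed level of 84.8 and 221 TPM in replicates 1 and 2 against 258 and 211 TPM in the *Osr1controls* libraries, and 0 of 8 were called (3 lower at an unadjusted p under 0.05, 0 by edgeR, 2 lower by DESeq2). The chains outside these classes were *Col26a1*, with 5458 and 4659 against 4178 and 3918 normalized counts (-0.32, adjusted p = 0.131), and *Col28a1*, a collagen of peripheral nerve, with 192 and 153 against 128 and 100 (-0.59, adjusted p = 0.191).

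**Figure D2:**
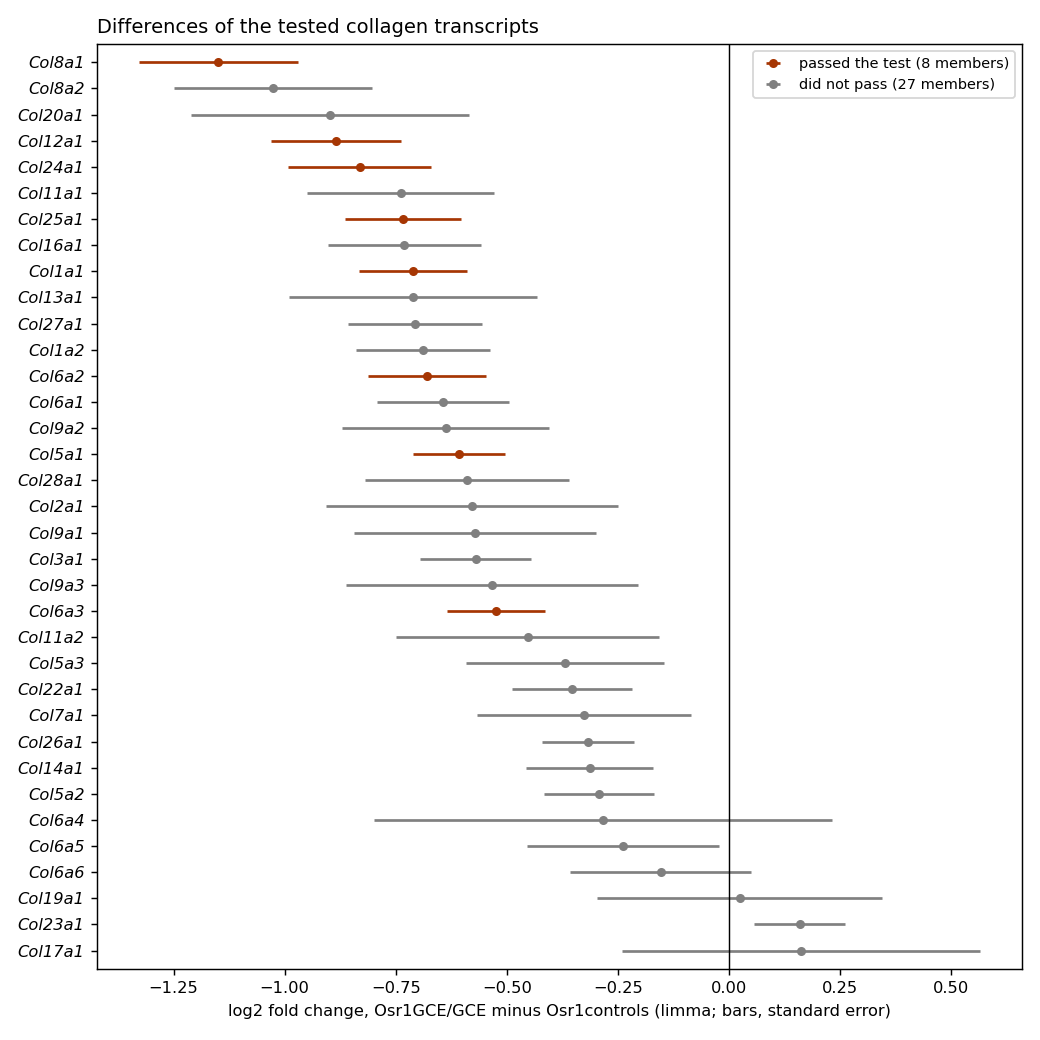
Log2 fold change (libraries labelled Osr1GCE/GCE minus Osr1controls, limma on log2(normalized count + 1)) of the 35 tested collagens, ordered by size, with bars of 1 standard error. The 8 genes that passed the test lie between -1.15 (Col8a1) and -0.52 (Col6a3), and 3 genes (Col19a1, Col23a1, Col17a1) have estimates above 0.

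The ratios of chains that share a trimer were compared within libraries, since a ratio does not depend on how a library is scaled. *Col1a1* to *Col1a2* stood at 2.12 and 2.20 in the *Osr1controls* libraries and 2.22 and 2.03 in the libraries labelled *Osr1GCE/GCE* by TPM (exact two-sided permutation p = 1.0). *Col6a1* to *Col6a2* was 2.16 and 2.14 against 2.15 and 2.26 (exact p = 0.667). The group means of *Col1a1* to *Col1a2* differed by less than the spread within either group. For *Col6a1* to *Col6a2* the log2 difference was 0.036. It lay under the standard deviation of the libraries labelled *Osr1GCE/GCE* (0.050) but over that of the *Osr1controls* libraries (0.0073). Both chains of each pair were lower in the second group.

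*Col5a2* to *Col5a1* was the ratio with the largest log2 difference of the 6 compared, at 0.741 and 0.685 in the *Osr1controls* libraries and 0.879 and 0.892 in the libraries labelled *Osr1GCE/GCE* (0.31, exact p = 0.333, which is also 0.333 or more for the other 5 ratios). *Col6a3* to *Col6a1* was 0.428 and 0.468 against 0.505 and 0.468, *Col9a1* to *Col9a2* 0.620 and 0.586 against 0.627 and 0.635, and *Col8a1* to *Col8a2* 0.271 and 0.306 against 0.263 and 0.266. No exact permutation p can reach 0.05 with these groups. The levels of the ratios depend on the gene length used, and *Col1a1* to *Col1a2* was 0.968 to 1.06, and *Col6a1* to *Col6a2* 1.35 to 1.43, with the longest transcript in place of all exons.

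**Figure D3:**
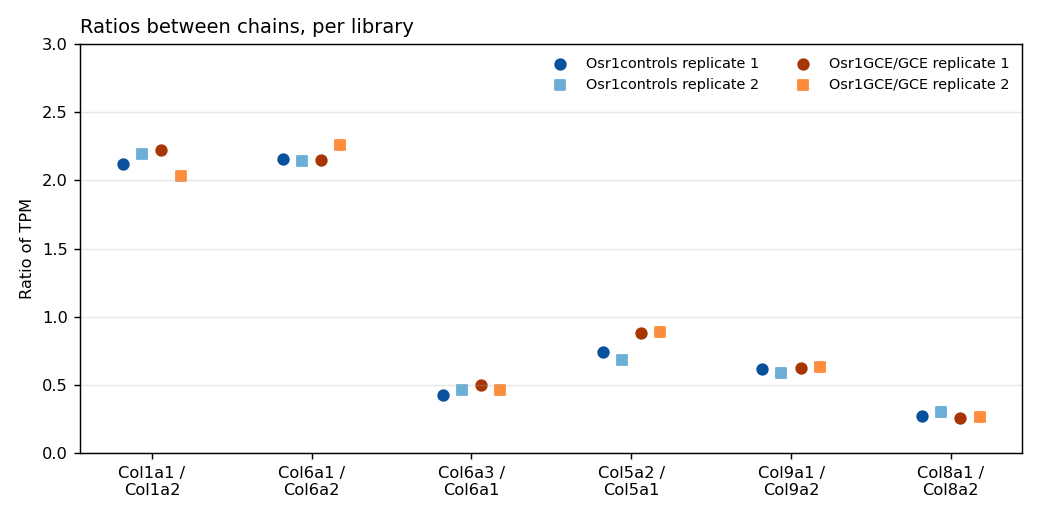
Ratio of the TPM of 2 chains (y axis, from 0) in each of the 4 libraries for 6 pairs of chains. The points of Col1a1/Col1a2 and Col6a1/Col6a2 mix between the groups, whereas for Col5a2/Col5a1 both libraries labelled Osr1GCE/GCE (0.879 and 0.892) lie above both Osr1controls libraries (0.741 and 0.685).

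Genes that assemble, process or bind collagens were read beside the chains. The 20 tested genes of collagen folding and hydroxylation, many of which also serve basement membrane collagens, had a median of -0.02 and no call in limma (6 lower and 0 higher at an unadjusted p under 0.05, 0 by edgeR, 4 lower by DESeq2). Their estimates ranged from -0.73 to 0.20, with 11 below 0 and 9 above. *Serpinh1*, the collagen chaperone HSP47, had 33559 and 27190 normalized counts against 31437 and 30252 (0.03, adjusted p = 0.908). Of 13 genes of procollagen processing and crosslinking, 2 fell, and the median was -0.33. These were *Pcolce*, the enhancer of procollagen C-proteinase, with 1718 and 1348 against 641 and 663 normalized counts (-1.22, adjusted p = 0.0262), and *Adamts2*, the procollagen N-proteinase (-0.65, adjusted p = 0.0440).

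Among 13 collagen receptors, *Mrc2*, the endocytic receptor that takes up collagen fragments, fell (-0.82, adjusted p = 0.0329), as did *Ddr1*, a receptor tyrosine kinase for collagen (-0.67, adjusted p = 0.0329). *Antxr2*, a receptor that binds types IV and VI and laminin, rose from 2519 and 2261 to 3260 and 3317 normalized counts (0.46, adjusted p = 0.0457). *Fmod*, the proteoglycan that guides fibril growth, was the 1 of 12 fibril partners that fell (-0.94, adjusted p = 0.0490), and it also stands in the list of tendon markers. Without replicate 1 labelled *Osr1GCE/GCE* the adjusted p was 0.0684 for *Pcolce*, 0.165 for *Mrc2* and 0.180 for *Ddr1*, 0.219 for *Antxr2*, 0.259 for *Adamts2* and 0.263 for *Fmod*. *Antxr2*, *Ddr1*, *Adamts2* and *Fmod* also lost their calls without replicate 2 of that group (0.141, 0.0676, 0.0676 and 0.103), and *Antxr2* without *Osr1controls* replicate 2 (0.0581).

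The 8 basement membrane collagens served as the comparison within the family. None was called in limma (0 lower and 1 higher at an unadjusted p under 0.05, 0 by edgeR, 1 higher by DESeq2), and their median was -0.28. Their summed level was 3270 and 2920 TPM in the *Osr1controls* libraries and 3080 and 2607 TPM in the libraries labelled *Osr1GCE/GCE*, overlapping ranges where the other collagens had none. *Col4a1*, the main type IV chain, had 101905 and 78480 against 79820 and 68135 normalized counts (-0.28, adjusted p = 0.303), and *Col18a1*, the source of endostatin, 52630 and 63610 against 82617 and 69608 (0.39, adjusted p = 0.121). No test of the difference between the collagen sets was made.

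Fibroblast, tendon, smooth muscle, skeletal muscle, glia and neuronal markers had lower sums in both libraries labelled *Osr1GCE/GCE*. The sums of chondrocyte, osteoblast, epithelial, and leukocyte and erythroid markers overlapped between the groups. Neuronal markers summed to 210 and 165 TPM in the *Osr1controls* libraries against 106 and 142 TPM, and Schwann cell and glia markers to 182 and 172 against 143 and 141 TPM. The 20 fibroblast markers, of which *Mfap5* encodes a microfibril protein of the matrix and the others were chosen outside it, summed to 1381 and 1152 TPM in the *Osr1controls* libraries and 724 and 837 TPM in the libraries labelled *Osr1GCE/GCE*, with 5 called lower, 0 higher and a median of -0.57 (-0.57 also without *Mfap5*). By edgeR 2 of them were lower and by DESeq2 11, and with a library left out 0 (without replicate 1 labelled *Osr1GCE/GCE*) to 12 (without *Osr1controls* replicate 2). The summed level of the 36 collagens per unit of that of the fibroblast markers was 3.31 and 3.14 against 3.26 and 3.23. The groups overlapped (exact permutation p = 1.0, where 0.333 is the smallest possible). Other lists with lower sums were not used as a denominator, and what this ratio reflects was not tested. The 7 tendon markers summed to 834 and 767 against 366 and 528 TPM (2 lower, 0 higher), of which *Egr1*, an immediate early gene of many cell types, gave 650 and 623 against 291 and 431 TPM, and without it the sums were 185 and 144 against 75.3 and 96.2 TPM (2 lower, 0 higher). The 8 of smooth muscle and pericytes summed to 566 and 306 against 208 and 220 TPM (2 lower, 0 higher), and of the skeletal muscle markers 6 were lower and 0 higher. Lower calls in the tendon, smooth muscle and skeletal muscle lists numbered 1, 2 and 4 by edgeR and 5, 3 and 8 by DESeq2, and 0, 1 and 0 without replicate 1 labelled *Osr1GCE/GCE*, while without *Osr1controls* replicate 2 the smooth muscle list had 6. The Schwann cell and glia list had 1 of 7 lower (1 by edgeR, 1 by DESeq2, 0 without either library labelled *Osr1GCE/GCE*), the osteoblast list summed to 53.4 and 65.4 against 41.0 and 55.1 TPM, and the osteoblast, neuronal and leukocyte and erythroid lists (6, 7 and 7 genes) had no call in limma (3, 4 and 0 lower and 1, 0 and 0 higher at an unadjusted p under 0.05, 0 by edgeR, 1, 1 and 0 lower and 1, 0 and 0 higher by DESeq2). The 12 LEC markers ran the other way, at 2528 and 3382 TPM against 4595 and 4403 TPM, with 6 of 11 tested called higher and 0 lower (6 by edgeR, 7 by DESeq2, 1 without replicate 1 and 3 without replicate 2 labelled *Osr1GCE/GCE*). Among the LEC markers tested, 1 had an estimate below 0 (-0.46) and was not called. The 11 pan-endothelial markers summed to 3581 and 3439 against 4378 and 4121 TPM, with 3 called higher and 0 lower (3 and 0 by edgeR, 6 and 0 by DESeq2). Of their estimates 8 were above 0 and 3 below, the lowest -0.92. No marker of these lists had 0 reads in any library, and the part of these cell types in the lower collagen levels was not tested.

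The libraries of the fibroblast markers had the same order as those of the collagens outside cartilage, and so had those of several other lists. As a median over the 29 collagens outside cartilage, log2(normalized count + 1) deviated from each gene's mean by 0.46 and 0.15 in *Osr1controls* replicates 1 and 2 and by -0.37 and -0.21 in replicates 1 and 2 labelled *Osr1GCE/GCE*. The fibroblast markers had deviations of 0.42, 0.16, -0.36 and -0.18 in the same order, and the LEC markers of -0.47, -0.24, 0.39 and 0.32. Tendon (0.43, 0.20, -0.56, -0.25), osteoblast (0.22, 0.09, -0.37, -0.06), smooth muscle and pericyte (0.74, -0.04, -0.50, -0.39), glia (0.22, 0.17, -0.21, -0.10) and neuronal markers (0.48, 0.08, -0.39, -0.08) ranked the libraries as the fibroblast markers did. Skeletal muscle, epithelial, and leukocyte and erythroid markers did not. Of the 35 collagens, 30 were higher in *Osr1controls* replicate 1 than in replicate 2, and 12 were higher in replicate 1 than in replicate 2 labelled *Osr1GCE/GCE*. Cartilage collagens (0.68, -0.13, -0.31, -0.29) also ranked the libraries as the fibroblast markers did, but with 1 high library and 3 closer ones. Chondrocyte markers (0.47, -0.20, -0.17, -0.23) had 1 high library and 3 close ones in another order.

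**Figure D4:**
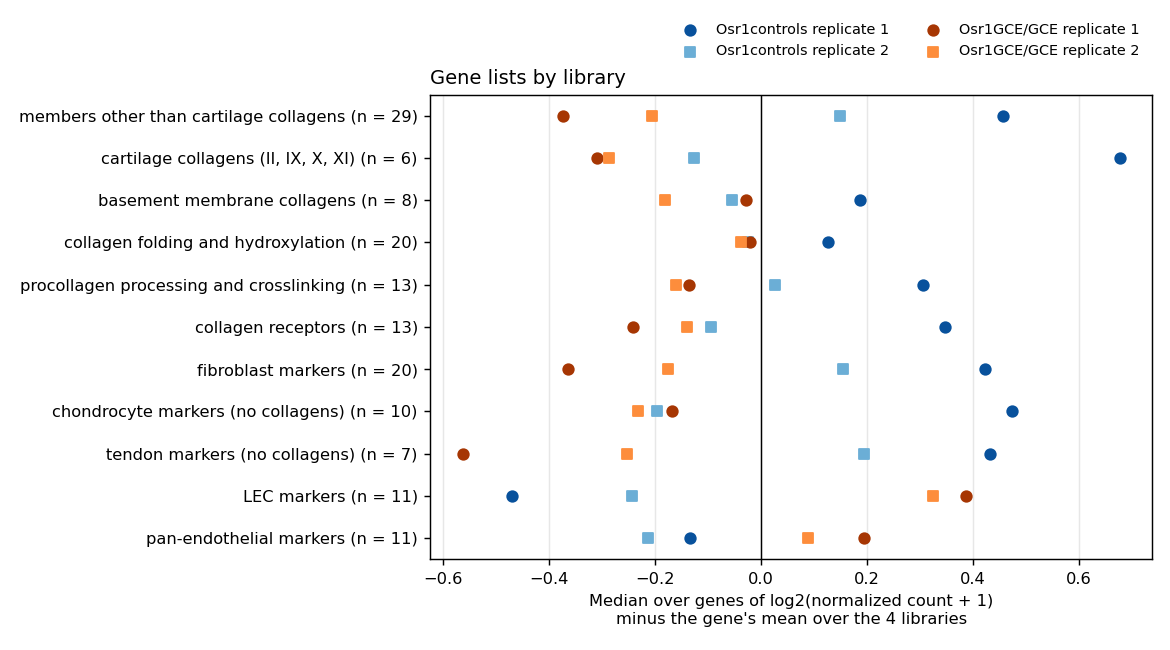
Median over the tested genes of each list of the deviation of log2(normalized count + 1) from the gene's mean over the 4 libraries (x axis), 1 point per library and list. Collagens outside cartilage, fibroblast markers and tendon markers have the same order of libraries (0.46, 0.42 and 0.43 in Osr1controls replicate 1). LEC markers have the opposite direction, and cartilage collagens the same order with 1 high library (0.68).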

How the data were processed

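LECs sorted from E13.5 trunk tissue were measured in 4 libraries, 2 per group. PolyA RNA was made into libraries without strand information (TruSeq V2), and per the study's methods and processing notes STAR (mm10), featureCounts and DESeq2 turned the reads into values, each tool's version being not given in the sources used here. What the authors deposited is a signal, the read count of each of 55385 gene IDs over the size factor of DESeq2 for that library. Taking the smallest value above 0 of a library as 1 read gave whole reads for 100% of values within 0.001 reads, with size factors of 1.40, 0.955, 0.921 and 0.807. Symbols and exon lengths came from GENCODE release 21 (55144 IDs found, 241 not), and TPM from normalized counts and the union of exons.

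Groups were compared with limma 3.58.1 (trend and robust options, R 4.3.3) on log2(normalized count + 1) in 19479 genes averaging 10 or more, which understates changes of low genes. A call needed a log2 fold change of 0.3 or more in size, p under 0.05 after Benjamini-Hochberg adjustment, and more than 1 TPM on average. No source says whether the 2 pools of a group came from separate litters, so p-values measure only the spread between these pools. edgeR 4.0.16 and DESeq2 1.42.0 were run on the recovered reads as alternatives, with the replicate block, TMM and library totals, other filters, pseudocounts and thresholds, and each library left out. In simulated counts for 19479 genes, limma found 63.3% of the genes set to change by 1 on the log2 scale, 86.7% of those set to 2 and 0.0986% of the rest. Each simulation changed 200 genes, independently of each other and none by less than 1, whereas the median of the collagens was -0.58. The shares found therefore do not describe the test at that size or with genes that shift together. The members, the lists and the tests were chosen with earlier results of these data known. Named are all 36 members, from each other list up to 3 called genes per direction by adjusted p where they bear on collagen, *Osr1* and the sorting markers, and *Prox1*, with *Serpinh1*, *Col4a1*, *Col18a1* and *Ccl21a* named after their values were seen. Promoter windows came from RefSeq (GRCm38.p6). Set tests and other datasets of the study were not used here.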

Additional observations from a re-analysis of the deposited data

How the results depend on the processing

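Of the 35 collagens, 30 to 34 had estimates below 0 in all alternatives that tested 35, but the calls were less stable. The 8 collagens called lower became 5 with TMM factors, 16 with DESeq2, 0 with limma without its trend and robust options, 14 at an adjusted p under 0.1 and 0 to 24 with a library left out. The median of the 35 ranged from -0.84 to -0.40 with a library left out. Calls over all genes (341 lower, 221 higher) became 215 lower with edgeR, 842 and 663 with DESeq2, 0 and 0 with limma without those options (3425 at an unadjusted p under 0.05), 695 and 425 with no filter on low values, 916 and 572 at an adjusted p under 0.1, and 12 to 1069 lower and 13 to 391 higher with a library left out. The filter without a minimum tested more genes (37634), and the cause of the other shifts was not tested. Pseudocounts of 0.5 and 5 and the removal of the TPM or fold threshold left 8 collagens called, and the same 8.

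Estimates that changed sign were those of *Col6a4* (-0.88 to 0.31 with a library left out), *Col6a6* (-0.47 to 0.16), *Col7a1* (-0.70 to 0.047, the first a call with adjusted p = 0.0256 without *Osr1controls* replicate 2), *Col17a1* (-0.44 to 0.77) and *Col19a1* (-0.35 to 0.40, and also -0.047 with library totals, -0.023 with edgeR and -0.0075 with DESeq2), and *Col7a1* in that fit was their only call.

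With the replicate number as a block, 0 collagens were called, and 96 genes were lower and 29 higher. The numbers are not taken to pair the libraries, since same-numbered libraries deviated apart (r = -0.12 over 19479 genes). A crossed pairing, chosen after seeing the data, called 15 collagens and 766 genes lower and 516 higher.

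*Col10a1* and *Col6a4*, with 0 to 29 reads per library, are limited by depth, and the 2 libraries per group limit all other values. The values of the tendon list without *Egr1* and of the fibroblast list without *Mfap5* were added after seeing the data.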
